A study of Bos taurus with 8 samples.

Results

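The genes described here are 10 T cell surface and cytotoxic markers of rumen papillae: CD2, CD3D, CD3E, CD3G, CD4, CD5, CD8A, CD247, LCK and GZMB. They were chosen by name, and a probe was assigned to a gene when its RefSeq accession belonged to that symbol in the bovine reference. Of the 10 genes, 8 had a probe, and CD3D and CD5 were not matched to a probe by this rule. CD4 had 2 probes and each of the other genes 1, so 9 of the 21475 probes belonged to them. The 8 genes are among 7788 symbols that the array's accessions gave. RNA came from papillae of the ventral rumen sac of 4 ruminally cannulated, lactating Holstein cows in a crossover. Every cow was sampled on a low-concentrate diet (LC, 40% concentrate of dry matter) and on a high-concentrate diet (HC, 70%), at 4 h after feeding on day 21 of a feeding period, and each array held 1 sample. Cows 1 and 2 received LC first (period 1) and HC second (period 2), and cows 3 and 4 the reverse. The ages of the cows are not given in the labels, all 4 were female, and both groups had been fed a low-concentrate ration before the trial.

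A T cell recognizes antigen through a receptor whose variable chains have no signalling tail of their own. The CD3 gamma, delta and epsilon chains (CD3G, CD3D and CD3E) and the zeta chain (CD247) carry the signal into the cell, where the kinase LCK phosphorylates them. CD4 marks helper T cells and binds MHC class II, CD8A marks cytotoxic T cells and binds MHC class I, CD2 is an adhesion receptor of T and natural killer cells, CD5 dampens receptor signalling, and GZMB is the serine protease granzyme B of cytotoxic granules. In stratified epithelia such as that of the rumen, T cells lie among the basal keratinocytes and in the connective tissue of the papilla core, and they are a small part of the tissue. CD3E, CD3D and CD3G are neighbours, in this order, on the ARS-UCD2.0 reference.

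Each array gave 1 background-subtracted intensity per spot, and 76.9 to 81.2% of the probes of an array were well above background by the scanner software's own test. Such a probe is called detected on that array. Values below are log2 intensities after quantile normalization between the 8 arrays, averaged over the 2 spots of a probe. They can be compared between arrays for 1 probe, not between probes. Both periods held 2 arrays of each diet, but the 4 arrays of a period shared 1 slide, and period and slide cannot be told apart. In the deposited table of normalized values the columns of cows 1 and 2 followed the scanner output of the other of these 2 cows on both diets (r of 0.999 across probes against 0.994 to 0.995 for the array of the same name), so the names of cows 1 and 2 are uncertain below. This exchange touches neither the diets nor the pairing of the 2 arrays of a cow. As markers of the labelled tissue, 5 of the 6 squamous epithelial genes with a probe passed this test on all 8 arrays, and TP63 did so on none. Since whole papillae were measured, fewer T cells and less RNA per T cell cannot be told apart.

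No T cell marker separated the diets. A limma model of diet, period and the interaction covered all 21475 probes, and a difference was called, as the study defines it, at a fold change of at least 1.5 with an unadjusted p under 0.05. For diet, 0 of the 8 genes were called, against 0.922% of all probes and 0.274% of those detected on all arrays. None had an unadjusted p under 0.05 either, against 3.65% and 2.61%, nor in the same model without moderation. Under other alternatives CD3E and LCK had such a p, as given with these genes. All Benjamini-Hochberg adjusted p values of the 8 were at least 0.9995. The log2 difference, HC minus LC, was above 0 for CD2, CD3E, CD8A and GZMB and below 0 for CD3G, CD4, LCK and, at -0.00, CD247. LC and HC signals overlapped for all 8, and for none of them did all 4 cows change the same way. Among the 16030 probes detected on all arrays, the diets did not overlap for 1.63% and all 4 cows changed the same way for 11.3%.

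Of the 8 genes, 7 were detected on every array and CD8A on 7 arrays. The mean of the 7 was 7.79, 8.02, 7.97 and 8.17 in cows 1 to 4 on LC, and 8.09, 7.96, 7.88 and 8.10 in the same cows on HC. It thus lay inside the LC range on all 4 HC arrays. The group means were 7.98 ± 0.16 (SD, n = 4) and 8.01 ± 0.11 (SD, n = 4), a log2 difference of 0.02. Leaving out 1 array at a time moved this difference between -0.04 (without the LC array of cow 1) and 0.08 (without that of cow 4), and after normexp it was -0.0051, so its sign is not settled. The mean was higher on HC by 0.30 in cow 1 and changed by -0.05, -0.09 and -0.07 in cows 2, 3 and 4. In period 1 the HC arrays were higher by 0.09 and in period 2 the difference was -0.04, with different cows on the diets.

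**Figure D1:**
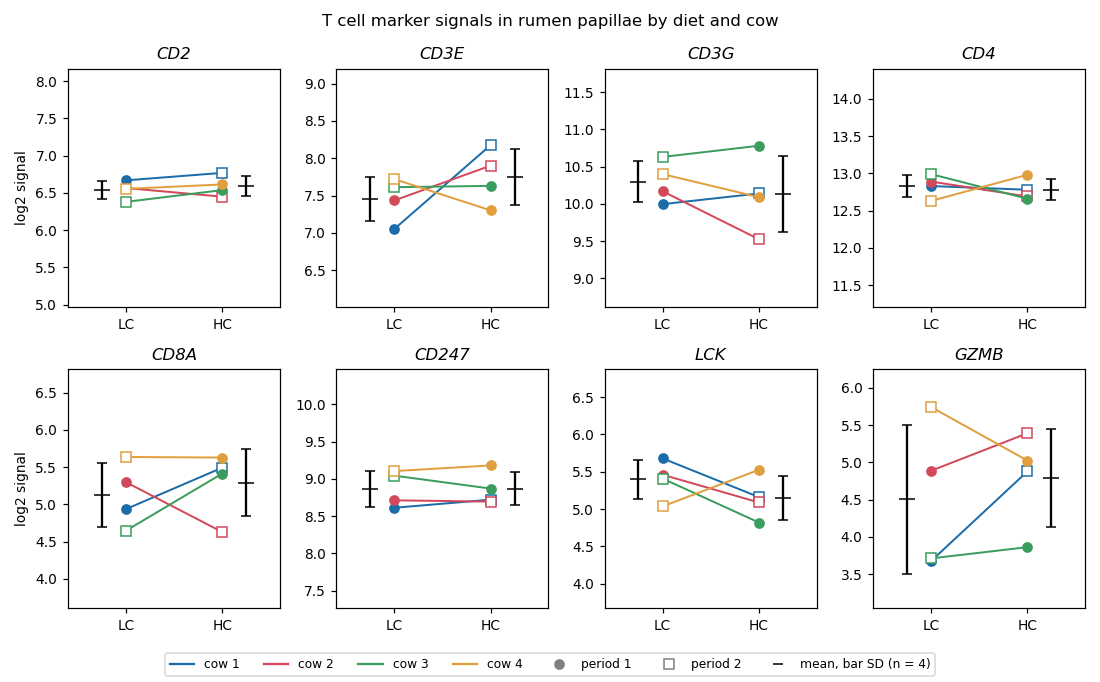
Normalized log2 signal of the 8 T cell markers with a probe (brightest probe of each gene) on the LC and HC diets. Lines join the 2 arrays of a cow, filled circles are period 1 and open squares period 2, black bars are the mean ± SD of 4 arrays, and every panel spans the same number of log2 units. GZMB spans 2.07 log2 units over the 8 arrays and CD4 0.36, and in no panel do the diets separate.

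Among the signalling chains of the receptor, CD3E (NM_174011) came nearest to a difference between diets. Its log2 signal was 7.05, 7.43, 7.61 and 7.72 in cows 1 to 4 on LC, and 8.18, 7.90, 7.63 and 7.30 on HC. The highest values were the HC arrays of cows 1 and 2, both from period 2, while the lowest were the LC array of cow 1 and the HC array of cow 4, both from period 1. The difference, HC minus LC, was 0.30 (standard error 0.14), or 1.23-fold. The unadjusted limma p was 0.0759, and an exact two-sided permutation over the arrays, which ignored cow and period, gave 0.257. HC exceeded LC in 3 of 4 cows, by 1.12, 0.47 and 0.02 in cows 1 to 3, and HC minus LC was -0.42 in cow 4. Within period 1 the difference was 0.22 and within period 2 it was 0.37. The limma p fell to 0.0438 with cow as a random block, to 0.0403 without the LC array of cow 2 (0.39) and to 0.0496 without the HC array of cow 4 (0.38), each short of the fold threshold, and was 0.123 with cow as a fixed block.

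CD3G (NM_001040472), the gamma chain that pairs with CD3E in the receptor, had log2 signals of 10.00, 10.17, 10.63 and 10.40 in cows 1 to 4 on LC and of 10.14, 9.53, 10.78 and 10.09 on HC. The array of cow 3 was the highest on each diet, and the array of cow 2 on HC was the lowest of all 8. The log2 difference between diets was -0.17 (standard error 0.21, exact permutation p = 0.600). The sign of this difference rests on few arrays, since it was 0.0054 without the HC array of cow 4 and -0.34 without that of cow 3. Across the 8 arrays CD3E and CD3G did not follow each other (Pearson r = -0.05, Spearman rho = 0.10), a description over arrays that share cows and slides.

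CD247 (NM_174012), the zeta chain with the most phosphorylation motifs of the complex, was the most even of the 3 within a cow. Its log2 signals were 8.61, 8.71, 9.04 and 9.10 on LC and 8.72, 8.70, 8.87 and 9.18 on HC in cows 1 to 4. The arrays of cows 3 and 4 lay above those of cows 1 and 2 on both diets. The log2 difference between diets was -0.00 (95% confidence interval -0.25 to 0.25, limma), and within a cow HC minus LC lay between -0.17 and 0.11. The interval leaves out a change of 1.5-fold in either direction.

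LCK (NM_001034334), the kinase that starts signalling from the CD3 chains and is bound by CD4 and CD8, had the largest diet difference of the 4 genes below 0. Its log2 signals in cows 1 to 4 were 5.68, 5.46, 5.41 and 5.04 on LC, and 5.16, 5.09, 4.82 and 5.53 on HC. In cows 1, 2 and 3 the HC array was the lower, HC minus LC being -0.52, -0.37 and -0.59, and in cow 4 it was higher by 0.49. The log2 difference was -0.25 (standard error 0.18), or 1.19-fold lower. The unadjusted limma p was 0.224 and the exact permutation p 0.286. The size rested on single arrays, since the difference was -0.42 without the HC array of cow 4, -0.07 without that of cow 3 and -0.15 without the LC array of cow 3. In the first of these the limma p was 0.0279, short of the fold threshold.

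**Figure D2:**
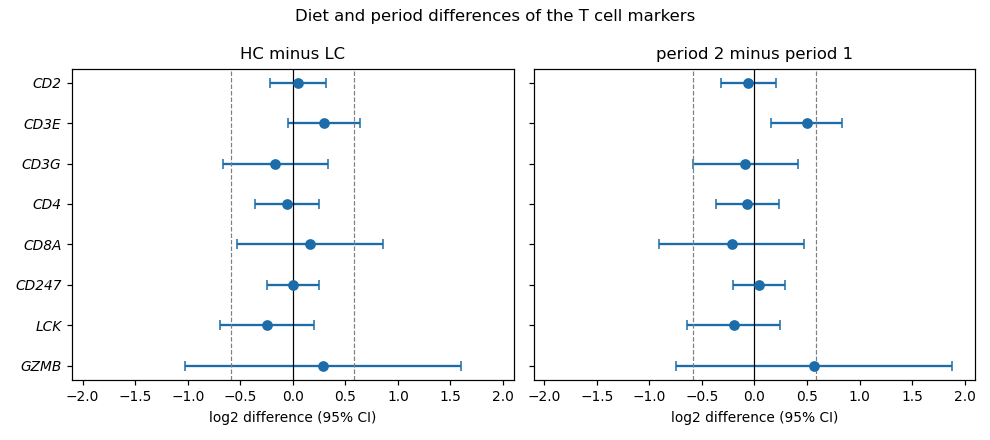
Log2 differences of the 8 T cell markers between diets (left, HC minus LC) and between periods (right, period 2 minus period 1). Points are limma estimates from 8 arrays, bars are 95% confidence intervals and dashed lines mark a 1.5-fold change. All diet intervals include 0, and CD3E, at 0.50 between periods, is the only gene whose period interval does not.

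Among the co-receptors, CD4 (NM_001103225) had 2 probes that behaved differently. The brighter was detected on all 8 arrays, with log2 signals of 12.83, 12.89, 12.99 and 12.63 on LC and of 12.78, 12.69, 12.66 and 12.98 on HC in cows 1 to 4. It was among the steadier probes, with an SD of 0.14 over the 8 arrays, against a median SD of 0.20 over probes detected on all arrays. The other probe was detected on 5 arrays, 2 on LC and 3 on HC, with log2 signals between 1.88 and 2.93, where the dimmest probes that still passed had 2.02 to 2.77 on the different arrays. The log2 differences between diets were -0.06 (standard error 0.12) for the brighter probe and 0.24 (standard error 0.14) for the dimmer. The sign of the CD4 difference therefore depended on the probe, and with the mean of both probes it was 0.09. Which of them measures CD4 was not tested.

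CD8A (NM_174015) encodes the alpha chain of CD8. Its log2 signals were 4.94, 5.30, 4.65 and 5.64 in cows 1 to 4 on LC, where the array of cow 3 was not well above background, and 5.49, 4.63, 5.41 and 5.63 on HC. Cow 4 had the highest signal on each diet, and the lowest belonged to cow 3 on LC and cow 2 on HC. The log2 difference between diets was 0.16 (standard error 0.29; unadjusted limma p = 0.592, exact permutation p = 0.686). The probe of CD8B (NM_001105344), which encodes the other chain of the CD8 heterodimer, was detected on all arrays. CD8B, named after its values were seen, had log2 signals of 5.87, 5.56, 4.98 and 6.53 on LC and of 6.23, 5.10, 5.90 and 6.004 on HC in cows 1 to 4. It followed CD8A over the 8 arrays, with a Pearson r of 0.88 and a Spearman rho of 0.93, higher than any of the 28 pairs of the 8 markers, the highest of which was CD4 with LCK at 0.79. CD8B had a log2 difference between diets of 0.08 (standard error 0.40).

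CD2 (NM_001011676), the adhesion receptor, had the lowest SD of the 8 over the arrays, 0.12, next to 0.14 for CD4. Its log2 signals were 6.67, 6.57, 6.38 and 6.55 on LC and 6.77, 6.45, 6.54 and 6.61 on HC in cows 1 to 4. All 8 arrays thus lay within 0.39 log2 units, a range slightly wider than that of CD4. The difference between diets was 0.05 (95% confidence interval -0.21 to 0.31, limma), an interval that leaves out a 1.5-fold change.

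GZMB (NM_174296), the granzyme of cytotoxic lymphocytes, varied the most. Its log2 signals were 3.67, 4.89, 3.71 and 5.74 in cows 1 to 4 on LC, and 4.88, 5.39, 3.86 and 5.02 on HC. Cows 2 and 4 had higher signals than cow 3 on both diets, and the range over the 8 arrays was 4.19-fold. The SD over the arrays, 0.80, was as high as or higher than that of 99.0% of the probes detected on all arrays, and of 98.6% of those among them with a mean log2 signal under 6, which vary more than brighter probes. The log2 difference between diets was 0.28 (95% confidence interval -1.03 to 1.599, limma), with an exact permutation p of 0.714. A change of 1.5-fold in either direction lies within this interval, which comes from the fit without a term for cow. With cow as a fixed block the unadjusted limma p of this difference was 0.231, against 0.617 in the main fit. The interval of that block fit is not given here. GZMB was higher on HC in cows 1, 2 and 3, by 1.203, 0.50 and 0.15, and changed by -0.72 in cow 4.

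Between the periods, CD3E had the lowest p of the 8 genes. Its mean was 7.35 ± 0.24 (SD, n = 4) in period 1 and 7.85 ± 0.25 (SD, n = 4) in period 2, 1.41-fold, short of the fold threshold. The log2 difference was 0.50 (standard error 0.14). Its unadjusted limma p was 0.0112, its adjusted p over all probes 0.247 and its exact permutation p 0.0571. On each diet both period 2 arrays lay above both period 1 arrays, but they came from other cows, and within cows period 2 was higher in 3 of 4. Without the LC array of cow 2 the log2 difference was 0.59 and CD3E was called. With all arrays in the main fit, CD3E was 1 of 8 genes with an unadjusted p under 0.05 for period, against 12.3% of all probes. With cow as a fixed block GZMB, at 0.57, also had such a limma p, 0.0456, and that of CD3E was 0.0293. Both stayed short of the fold threshold there. No gene was called for period with all arrays, against 3.86% of all probes, and the other 7 had log2 differences between -0.22 and 0.57. The dimmer CD4 probe had a log2 difference of 0.54 (unadjusted p 0.00867 from limma) with no overlap between the periods, but at signals near background. Such non-overlap was found for 7.31% of the probes detected on all arrays.

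Cows were compared as well, since each was sampled on both diets. In limma with cow, period and diet, a test chosen after the values were seen, the unadjusted p for cow was 0.0121 for GZMB, and 0.211 after adjustment over all probes. GZMB cow means were 4.28, 5.14, 3.79 and 5.38 in cows 1 to 4, a 3.03-fold range. The unadjusted p was below 0.05 for 1 of the 8 genes, against 16.3% of all probes. This count was not stable. It was 2 without LC cow 2, LC cow 3 or HC cow 1, after normexp, in the deposited table and without period in the model, and 3 with only detected probes or with trend and robust moderation. For CD247, whose cow means were 8.67, 8.70, 8.96 and 9.14, the unadjusted p was 0.0547, and for CD3G it was 0.0823. CD3E differed the least among cows after CD4, with cow means between 7.51 and 7.67, although its arrays spanned 1.12 log2 units.

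The interaction of diet and period is, in this crossover, the contrast of cows 1 and 2 with cows 3 and 4. Cows 1 and 2 minus cows 3 and 4 gave log2 differences of -0.52 (standard error 0.21) for CD3G and -0.36 (standard error 0.10) for CD247. The unadjusted p values from limma were 0.0445 and 0.011, and the adjusted p values over all probes 0.482 and 0.385. These were 2 of the 8 genes, against 10.2% of all probes with an unadjusted p under 0.05. The contrast lies between cows, but the fit counted both arrays of an animal separately. When each animal's arrays were averaged first, the limma p values were 0.0618 for CD3G and 0.0401 for CD247, which leaves 1 of the 8 genes. Both were short of the fold threshold, which 2.92% of the probes passed together with the p, but CD3G was called without the HC array of cow 4 (-0.69) or of cow 1 (-0.67). For CD247 the diet difference was 0.36 within period 1 and -0.37 within period 2, where different cows were compared, although no cow changed by more than 0.17 between the diets. For CD3G these values were 0.35 and -0.68.

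**Figure D3:**
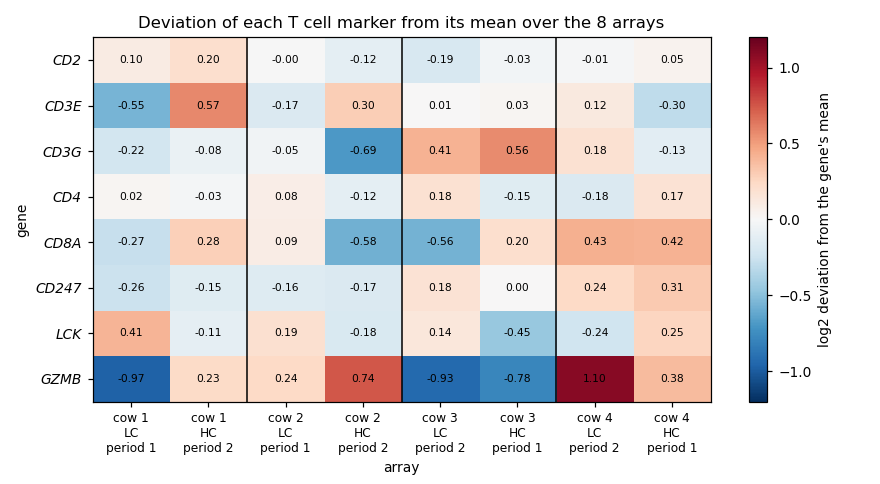
Log2 deviation of each T cell marker from its own mean over the 8 arrays, by cow, diet and period. Each cell is 1 array, printed with its value and coloured from blue (below the mean) to red (above). CD247 is below its mean on the 4 arrays of cows 1 and 2 and at or above it on those of cows 3 and 4, GZMB has the widest span, and the columns show no array on which all markers rise or fall.

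Correlations between the markers lay on both sides of 0. Over the 8 arrays, 9 of the 21 pairs among the 7 genes detected everywhere had a Pearson r above 0, the median r was -0.06, and the range ran from -0.69 (CD3E with LCK) to 0.79 (CD4 with LCK). CD3G and CD247, chains of the same complex, had an r of 0.46. These correlations are descriptions over 8 arrays that come from 4 cows on 2 slides. Among 6462 other genes detected on all arrays, those most like the mean of the 7 markers were SDE2 (r = 0.96), RNF141 (r = 0.91), IFI30 (r = 0.88), ZDHHC4 (r = 0.87) and GALNT12 (r = 0.87), again over 8 arrays. IFI30 is the lysosomal thiol reductase that opens disulfide bonds of antigens for MHC class II, and GALNT12 starts the O-glycosylation of mucins. They are the highest of 6462 correlations and are given as a description.

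Around the receptor, 22 of 37 listed genes of T cell receptor signalling and T cell transcription had a probe, 11 of them detected on all arrays and 6 on none, among them CD28, CTLA4 and TBX21. For diet, 1 was called lower in the HC group, a call that 0.428% of all probes had, and 0 higher. This was NFATC1, a calcium-regulated transcription factor downstream of the T cell receptor that other cell types also express. NFATC1 had log2 signals of 7.38, 7.20, 6.64 and 6.79 on LC and of 5.75, 6.74, 6.29 and 6.60 on HC in cows 1 to 4, a difference of -0.66 (unadjusted limma p = 0.026, adjusted p = 0.9995, exact permutation p = 0.0571). It was lower on HC in 4 of 4 cows, and its call was lost without any 1 of the arrays of LC cows 1, 3 and 4 and HC cows 1 and 3, with differences between -0.69 and -0.41. Among the genes of this list with the highest signals, RUNX3, TCF7 and VAV1 had log2 differences of -0.34, -0.32 and 0.23. TCF7, a transcription factor of naive and memory T cells, had an unadjusted p of 0.0297 with a fold change below the threshold. The median difference of the 11 genes was -0.04, beside 0.00 over all probes detected on all arrays.

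Of the 26 cytotoxic and natural killer cell genes, 14 had a probe and 7 were detected on all arrays. None was called for diet, and 1, NCR1, had an unadjusted p under 0.05, at a log2 difference of -0.40, but was detected on no array. Of the others not detected on all arrays, KLRK1 (-0.22) and IFNG (-0.19) were also lower on HC. KLRD1, FASLG, CTSW and CD96 were higher. All 7 that were detected on all arrays had a positive log2 difference, HC minus LC, with a median of 0.19. None of the 7 had an unadjusted p under 0.05. Over all 16030 probes detected on all arrays 8006 were positive. Some other lists leaned the same way. Among genes detected on all arrays, positive were 5 of 5 macrophage (median 0.14) and 3 of 3 mast cell and neutrophil markers (median 0.05). So were 2 of 2 dendritic cell (median 0.24), 2 of 2 endothelial and 5 of 5 smooth muscle markers. Of the genes of these lists not detected on all arrays, XCR1 (-0.37) and MPO (-0.06) were lower on HC, and ITGAM and CPA3 higher. The T cell lists were mixed, with 3 of 7 markers, 4 of 11 receptor signalling and 12 of 19 growth and homing genes positive. Of the squamous epithelial markers 3 of 5 were positive, of the fibroblast 5 of 7, of the B and plasma cell 2 of 3 and of the red blood cell markers 1 of 2. SRGN, the proteoglycan that packs granzymes in granules, had a difference of 0.30, NKG7, a granule membrane protein, of 0.15, the activating receptor NCR3 of 0.13 and the Fc receptor FCGR3A of 0.53 (unadjusted p 0.0743). FCGR3A was called without the LC array of cow 4 (0.72) and without the HC array of cow 3 (0.74). GZMA, another granzyme, named after its values were seen, had 0.19 (unadjusted p 0.177). Several of these genes are also expressed by natural killer cells and macrophages.

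In the list of T cell growth and homing genes, 26 of 35 had a probe, 19 were detected on all arrays and 0 were called for diet, with a median difference of 0.10. Among the brightest, the log2 differences were 0.10 for ITGB2 (the beta 2 integrin chain), -0.32 for IL2RG (the shared gamma chain of cytokine receptors) and 0.05 for CCL5, a chemokine that T cells secrete. CCL5 was called higher in period 2, by 0.62 (unadjusted p 0.0312), a call that 1.09% of all probes had, as was IL15, which was detected on no array. CXCR6, a homing receptor of tissue T cells, named after its values were seen, had a period difference of 0.49 (unadjusted p 0.0171), short of the fold threshold. With cow as a block, the number of called genes over the 3 T cell lists rose from 1 to 3, since CCL19, which draws CCR7-bearing T cells, was called at a difference of 0.84 (unadjusted p 0.00353), as was IL2, which was detected on no array. The study, which fitted a general linear model in SPSS, listed CCL19 and IL2 as higher and IL15RA as lower on HC. Its array results came from these same arrays, so the direction here is not independent evidence. For IL2 the study also reported higher expression on HC by qRT-PCR of the RNA used for the arrays. It reported a rise of IL2 in cultured rumen epithelial cells given LPS as well. In the main fit here none of CCL19, IL2 and IL15RA was called, and IL15RA had a diet difference of -0.58 (unadjusted limma p 0.148). CCL19 was also called without the LC array of cow 4, at 1.254.

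**Figure D4:**
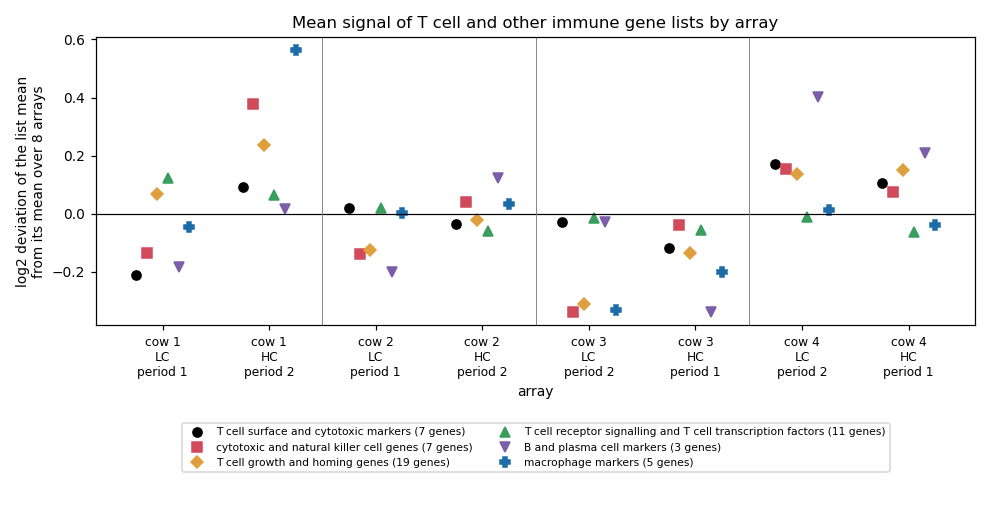
Mean log2 signal of the T cell markers and of 5 other immune gene lists on each array, as the deviation from the list's mean over the 8 arrays, with the number of genes detected on all arrays. On the HC array of cow 1 the macrophage list lies 0.56 above its mean and the T cell markers 0.09 above theirs. No list separates the diets.

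Other cell types varied over the same arrays. Of 11 macrophage markers, 6 had a probe and 5 were detected on all arrays, ITGAM being so on none. Their mean log2 signal was 8.17 to 8.51 on LC and 8.30 to 9.06 on HC, highest on the HC array of cow 1. Of 10 B and plasma cell markers, 4 had a probe and 3 were detected on all arrays, with means of 6.96 to 7.57 on LC and 6.82 to 7.37 on HC. For diet, 0 of these macrophage and B cell genes were called, and 0 of the dendritic cell, mast cell and neutrophil, epithelial, fibroblast, endothelial, smooth muscle and red blood cell markers. For period, 2 of the 4 B cell genes were called, in opposite directions, against 3.86% of all probes. MS4A1 (CD20), detected on 5 arrays, had a log2 difference of -0.77 and JCHAIN, the joining chain of secreted antibodies, of 0.75. ALAS2 of the red blood cell list, detected on 2 arrays, was also called for period, at -0.94. The 5 squamous epithelial markers had means of 13.94 to 14.45 on LC and 13.83 to 14.64 on HC. The part of these cell types in the values of the T cell markers was not tested.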

How the data were processed

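Rumen papilla RNA of 4 cows on 2 diets was hybridized to 8 single-colour Agilent bovine arrays. The authors deposited each array's scanner output, made with Agilent Feature Extraction 10.7.3.1 per the file headers, whose processed signal is a background-subtracted intensity on a linear scale. A second deposited file holds log2 values that the authors quantile-normalized in GeneSpring. Here log2 processed intensities were quantile-normalized between arrays after control and outlier spots were removed, and spots of a probe were averaged. A probe was well above background on an array when all its remaining spots carried that mark.

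RefSeq accessions named 8297 of 10176 probes with such an accession. Per gene the brightest probe was used. Members and lists were chosen with earlier results of these data known. Genes of the lists were named if called for diet or among the 4 with the highest signal of those well above background on all arrays, as were the 5 genes with the highest Pearson r to the markers' mean, and others named are said to be chosen afterwards or carry a call for period or under an alternative. Some genes that this rule names are not reported here.

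A model of diet, period and the interaction was run in limma 3.58.1 (R 4.3.3) on all 21475 probes, with Benjamini-Hochberg adjustment over them. Exact two-sided permutation tests of 4 arrays against 4 cannot give a p below 0.0286. They exchanged arrays without regard to cow and period, so they do not follow the pairing of the crossover. The limma fit was tested on simulated data. Cow numbers pair the arrays, since the 2 arrays of a number come from 1 animal. Deviations from the group means correlated by 0.285, 0.298, 0.467 and 0.113 within cows 1 to 4 and by -0.237 to 0.185 between cows. Alternatives were other scalings and background corrections, filters, the deposited table, blocks for cow and leaving out each array. The files held no mean spot signal, so normexp used the median signal. It added an offset of 50, which by itself lowers the log2 differences of dim probes. Coordinates of the reference were used only for the order of CD3E, CD3D and CD3G. No probe was placed by coordinates, because the array annotation and the reference differ in build. The number of arrays limits the precision.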

Additional observations from a re-analysis of the deposited data

Results flagged for a closer look

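The diet effect of CD3G differed between the periods by limma's interaction term, at -0.52 on the log2 scale (unadjusted p = 0.0445, adjusted p = 0.482), with HC minus LC at 0.35 in period 1 and -0.68 in period 2. For CD247 the same term was -0.36 (unadjusted p = 0.011, adjusted p = 0.385). In this crossover the term equals the contrast of cows 1 and 2 with cows 3 and 4, so a diet effect that changes with period and a difference between these pairs of cows cannot be told apart. When each animal's arrays were averaged first, the limma p values were 0.0618 for CD3G and 0.0401 for CD247. Neither passes adjustment over all probes. No T cell marker had an array that stood apart from the other 3 of its diet by Dixon's test, which has little power with 4 arrays.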

How the results depend on the processing

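None of the markers was called for diet under the 21 alternatives, of which the filter on dim probes left out CD8A. With cow as a replicate block, which pairs the 2 arrays of an animal, the called genes of the 3 T cell lists rose from 1 to 3 with period in the model and with cow as a random block, and the block changed no call of a marker for diet. That number was 4 in the deposited table, where EOMES, FASLG and IL2, each detected on no array, were called beside NFATC1. It was 0 after normexp correction, without moderation and with the mean of all probes of a gene. The number of all probes called for diet, 198, was 8 after normexp, 55 among probes well above background on all arrays, 105 without moderation and 415 in the deposited table. The CD4 interaction turned to 0.0018 under 75th percentile scaling and 0.0056 after normexp, the CD8A period difference to 0.012 after normexp, and, with the mean of both probes, CD4 to 0.090 for diet and 0.23 for period. NFATC1 lost its call after normexp (-0.35), with the mean of its probes (-0.43), with cow as a block but no period, and without moderation.

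Leaving out 1 array at a time gave 0 to 1 markers called for period (CD3E, without LC cow 2) and 0 to 1 for the interaction (CD3G), 0 to 4 called list genes and 239 to 404 called probes. Differences that changed sign for diet spanned -0.03 to 0.13 for CD2, -0.34 to 0.0054 for CD3G, -0.15 to 0.033 for CD4, -0.086 to 0.41 for CD8A, -0.079 to 0.076 for CD247 and -0.22 to 0.79 for GZMB. For period they spanned -0.14 to 0.021 for CD2, -0.26 to 0.084 for CD3G, -0.16 to 0.021 for CD4, -0.47 to 0.029 for CD8A and -0.030 to 0.12 for CD247. For the interaction they spanned -0.022 to 0.17 for CD3E, -0.10 to 0.073 for CD4, -0.49 to 0.0061 for CD8A, -0.027 to 0.33 for LCK and -0.39 to 0.63 for GZMB. The causes were not tested beyond the fewer arrays or probes used. GZMB kept an unadjusted p of 0.0138 to 0.0348 among cows without 1 array and of 0.00303 to 0.0436 under the 6 other alternatives run for this test. Signals near background limit the dimmer CD4 probe. CD8A was not well above background on the LC array of cow 3, although at 4.65 it lay above the dimmest passing probe there, 2.77. After normexp, with its offset of 50, the differences of GZMB fell from 0.28 to 0.041 for diet and from 0.57 to 0.16 for period. That of CD8A fell from 0.16 to 0.036 for diet.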
